A study of Mus musculus with 6 samples.

Results

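Wnt and beta-catenin signalling is described here through 10 genes, Fzd4, Fzd6, Lrp5, Lrp6, Reck, Axin1, Axin2, Tcf7l1, Tcf7l2 and Lef1, in bEND.3 cells after knockdown of the long non-coding RNA Gm39822. The members were taken by symbol, and all 10 were found among the 49315 genes of the count table. bEND.3 is an immortalized mouse brain endothelial line, so every sample came from 1 line grown without the mural cells and astrocytes that surround brain vessels. All cells were transfected by lipofection with an antisense LNA GapmeR at 100 nM, a short oligonucleotide whose DNA core recruits RNase H to its target RNA. In the 4 GapmeR samples it was directed at Gm39822 and in the 2 Negative Control samples it was a control GapmeR. The time between transfection and RNA isolation is not given in the sources used here. Nothing in the labels says that the samples were separate cultures, so p-values measure the spread between these samples, which may be technical.

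In this pathway a Wnt ligand binds a Frizzled receptor and an Lrp5 or Lrp6 co-receptor, and the signal at the membrane disables the complex of Axin, Apc and Gsk3b that otherwise marks beta-catenin for degradation. Beta-catenin then enters the nucleus and binds the Tcf and Lef proteins, which switch from repression to activation of their target genes. In brain endothelium Wnt7a and Wnt7b signal through Frizzled with the help of Reck and Adgra2, while the ligand norrin signals through Fzd4, Lrp5 and Tspan12. Both routes are known for building and maintaining the blood-brain barrier, in part by raising claudin-5 and the glucose transporter Slc2a1 and by lowering the fenestra protein Plvap.

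Promoter sequences are shown for the members that passed the test and have one in the RefSeq table, so that the letters the Tcf and Lef proteins read can be looked for near the start of their own pathway genes. Each is the 300-base window from 250 bases before to 50 after the gene start on mm10, printed 5′ to 3′ on the strand of the gene. Capitals mark the Tcf/Lef core CTTTGT, or ACAAAG where it lies on the other strand. The Tcf7l1 window is chr6:72788996-72789295 on the minus strand, the Reck window chr4:43875280-43875579 on the plus strand and the Fzd4 window chr7:89404116-89404415 on the plus strand.
Tcf7l1: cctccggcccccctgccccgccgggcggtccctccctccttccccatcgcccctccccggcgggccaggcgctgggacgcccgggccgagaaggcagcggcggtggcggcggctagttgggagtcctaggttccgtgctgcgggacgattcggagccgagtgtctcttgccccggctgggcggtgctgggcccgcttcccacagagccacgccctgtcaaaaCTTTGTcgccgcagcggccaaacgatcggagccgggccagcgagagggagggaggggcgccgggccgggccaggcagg
Reck: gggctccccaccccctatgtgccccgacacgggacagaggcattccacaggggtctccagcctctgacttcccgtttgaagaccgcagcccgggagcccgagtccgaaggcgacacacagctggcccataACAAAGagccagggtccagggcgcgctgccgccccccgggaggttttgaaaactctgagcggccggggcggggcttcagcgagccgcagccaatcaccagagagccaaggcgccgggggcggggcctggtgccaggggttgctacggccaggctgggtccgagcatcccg
Fzd4: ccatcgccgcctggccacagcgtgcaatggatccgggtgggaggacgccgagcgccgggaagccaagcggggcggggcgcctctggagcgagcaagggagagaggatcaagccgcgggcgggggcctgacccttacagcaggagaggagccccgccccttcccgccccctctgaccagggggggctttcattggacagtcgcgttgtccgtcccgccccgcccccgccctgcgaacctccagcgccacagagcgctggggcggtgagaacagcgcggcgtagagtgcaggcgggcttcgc
The Tcf7l1 and Reck windows each hold 1 copy of the core, and the Fzd4 window holds neither CTTTGT nor CTTTGA on either strand. The table held 10 windows for 6 of the 10 members, of which some overlap, and none for Axin1, Fzd6, Lrp5 and Lrp6. CTTTGT was found in 4 of the 10 windows, those of Tcf7l1 and Reck and 1 each of Lef1 and Tcf7l2, against 18.7% of all 32851 windows. CTTTGA, with TCAAAG on the other strand, was found in 1 of the 10 windows against 16.0% of all windows. The GC box GGGCGG, or CCGCCC, was found in 8 of 10 against 35.7%. A match in these letters is a description of the window and not a bound site.

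The knockdown was visible in each library. Gm39822 (ENSMUSG00000110618, chr11:51897312-51909624 on mm10) had 2, 1, 4 and 2 counts after knockdown (GapmeR 1 to 4) against 61 and 56 in the controls, a log2 fold change of -4.82 (SE 0.41, adjusted p = 8.8e-08, edgeR's quasi-likelihood test). Samples held between 29261988 and 37117934 counts, so that 3 counts, the limit a count of 0 allows for counting error, corresponded to 0.0771 to 0.110 CPM, the count relative to the TMM-scaled library size. TMM scaling gave factors of 1.02 to 1.05 after knockdown against 0.931 and 0.936. Scaling by library size alone moved the median log2 fold change of all tested genes from 0.03 to 0.17 and the share of calls that were higher from 55.9% to 74.1%. Endothelial markers were abundant in every sample, with summed levels of 7615 to 8743 CPM after knockdown against 9417 and 9772 CPM, and 6 of the 10 fell while 2 rose. Summed macrophage markers were 220 and 201 CPM in GapmeR samples 1 and 2, 333 and 369 CPM in GapmeR samples 3 and 4, and 170 and 165 CPM in the controls. Of the macrophage list 1 of 8 genes rose, of the mural list 2 of 7 tested genes rose with sums of 8.56 to 13.1 against 2.16 and 2.26 CPM, and of the fibroblast list none of 5 passed the test, although GapmeR sample 3 reached 74.2 CPM against 14.5 to 20.0 CPM in the other samples. Astrocyte markers (sums 4.43 to 6.61 against 7.80 and 8.32 CPM) fell in 2 of 5 genes and neuronal markers (23.4 to 41.3 against 50.2 and 51.2 CPM) in 3 of 4, and no marker on any list was at 0 in all samples. The part of these differences in the results below was not tested, and in bulk RNA fewer cells of a type and less RNA per cell cannot be told apart.

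All 10 members passed the filter of at least 5 counts in at least 2 samples, Lef1 only through its GapmeR samples. After knockdown 2 members rose, Tcf7l1 and Reck, and 2 fell, Fzd4 and Fzd6, at an adjusted p below 0.05 in edgeR's quasi-likelihood test. These 4 of 10 members, 40%, compare with 45.3% of the 18234 genes tested, of which 25.4% were higher and 20.0% lower. The count of called members was therefore near the background of this comparison. The median log2 fold change of the members was 0.09 against 0.03 over all tested genes, and no called member changed by as much as 1.5-fold, a size that 25.4% of tested genes reached with a call. The GapmeR and control ranges did not overlap for 6 of 10 members, Lef1 among them, against 59.2% of all tested genes.

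**Figure D1:**
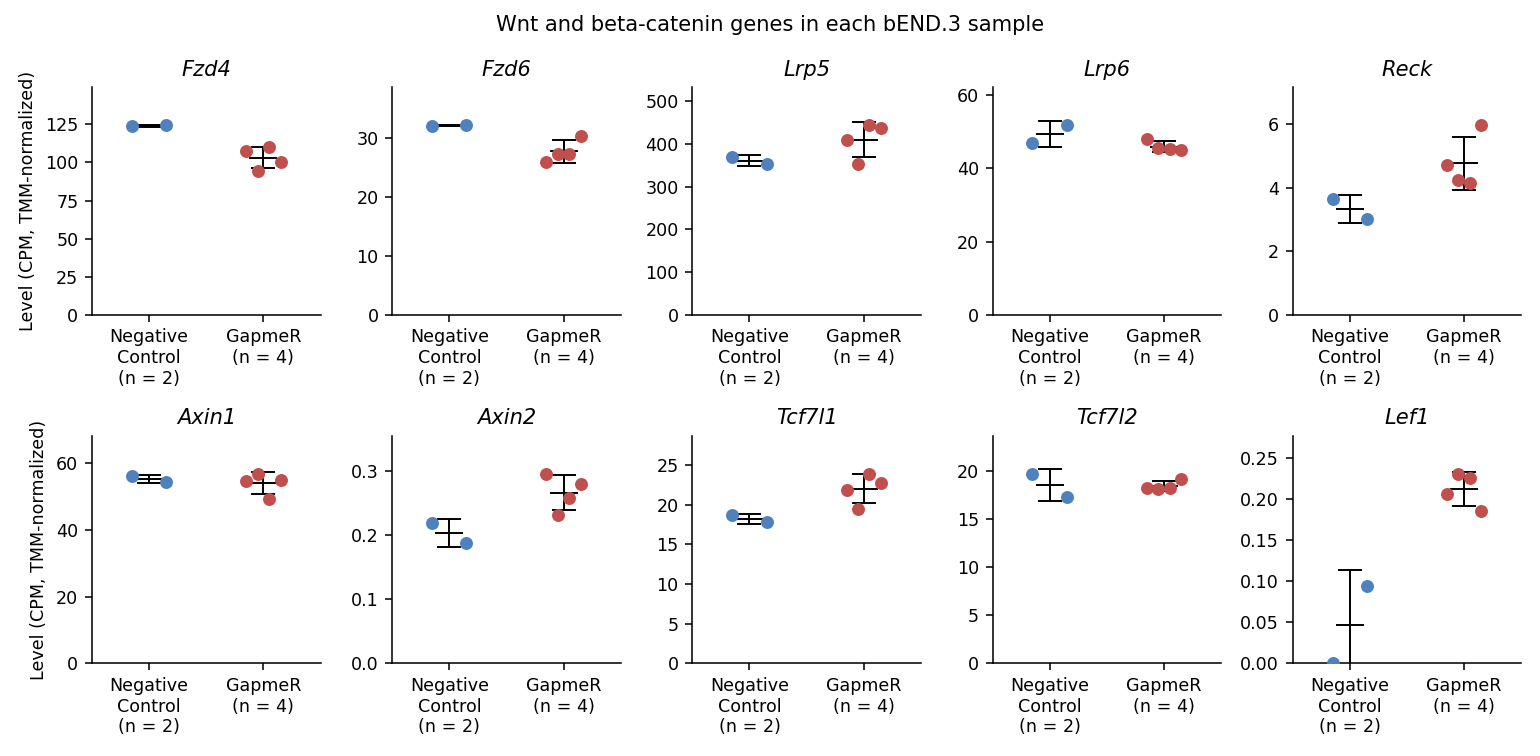
Level of each of the 10 members in every sample, in TMM-normalized CPM on a separate linear axis per gene, with 4 GapmeR and 2 Negative Control points and bars at the mean ± SD (that of the Lef1 controls is cut at 0). The GapmeR points of Fzd4 and Fzd6 all lie below both controls, those of Tcf7l1 and Reck all lie above, and those of Lrp5 overlap the controls.

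The Frizzled with the highest level per length was Fzd4 (ENSMUSG00000049791, chr7:89404366-89410110), the Frizzled that serves norrin and Wnt7 ligands in endothelium. Its counts were 3640, 3686, 3408 and 3236 (GapmeR 1 to 4, the order used throughout) against 3390 and 3974 (Negative Control 1 and 2), which after normalization were 107, 94.7, 110 and 100.2 CPM against 124 and 125 CPM. All GapmeR samples were below both controls, and the controls lay within 1 CPM of each other. Fzd4 fell by 0.27 on the log2 scale (SE 0.07, 95% interval -0.43 to -0.11, adjusted p = 0.0081), which is 1.21-fold lower. The call was lost without Negative Control 1 (adjusted p = 0.082), without Negative Control 2 (0.104) and with scaling by library size alone (log2 fold change -0.12, 0.179), within a range of 0.0025 to 0.179 over 14 alternatives.

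Fzd6 (ENSMUSG00000022297, chr15:39006149-39038192) is a Frizzled best known for planar cell polarity, the alignment of cells within a sheet. Its counts were 879, 1061, 844 and 980 after knockdown against 878 and 1026, or 25.9, 27.3, 27.2 and 30.3 CPM against 32.1 and 32.1 CPM. The raw counts of the groups overlapped, whereas after scaling every GapmeR sample was below both controls. Fzd6 fell by 0.21 on the log2 scale (SE 0.08, 95% interval -0.39 to -0.04, adjusted p = 0.0438), or 1.16-fold lower. The call was lost without GapmeR 1 (adjusted p = 0.119), GapmeR 3 (0.105), Negative Control 1 (0.199) or Negative Control 2 (0.232), in DESeq2's Wald test (0.0815), with at least 10 counts required in every sample (0.115) and with scaling by library size alone (-0.07, 0.560), within a range of 0.0213 to 0.560 over 14 alternatives.

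Of the co-receptors, Lrp5 (ENSMUSG00000024913, chr19:3584825-3686585) was the member with the highest level per length. It had 13833, 13697, 13764 and 14088 counts after knockdown against 10137 and 11229, or 408, 352, 444 and 436 CPM against 370.1 and 352 CPM. GapmeR 2 lay at the level of Negative Control 2 while the other GapmeR samples were above both controls, so the groups overlapped. The log2 fold change was 0.18 (SE 0.09, 95% interval -0.01 to 0.38, adjusted p = 0.112). It passed the threshold without GapmeR 2 (0.25, adjusted p = 0.0031) and with scaling by library size alone (0.33, 0.0063), within a range of 0.0031 to 0.524 over 14 alternatives, and its value was 0.09 without GapmeR samples 3 and 4.

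Lrp6 (ENSMUSG00000030201, chr6:134446476-134566913), the paralogue that shares the role of Wnt co-receptor, did not pass the test. Its counts were 1631, 1777, 1401 and 1451 after knockdown against 1282 and 1653, or 48.1, 45.6, 45.2 and 44.9 CPM against 46.8 and 51.8 CPM. The groups overlapped, with GapmeR 1 above Negative Control 1. The log2 fold change was -0.10 (SE 0.07, 95% interval -0.26 to 0.06, adjusted p = 0.281), and its sign turned with scaling by library size alone.

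Reck (ENSMUSG00000028476, chr4:43875521-43944806) is a membrane-anchored protein that presents Wnt7 ligands to Frizzled together with Adgra2. It was counted 160, 165, 129 and 193 times after knockdown against 100 and 96, or 4.72, 4.24, 4.16 and 5.97 CPM against 3.65 and 3.01 CPM. All GapmeR samples were above both controls, GapmeR 4 the furthest. Reck rose by 0.52 on the log2 scale (SE 0.18, 95% interval 0.13 to 0.91, adjusted p = 0.0302), or 1.44-fold, the largest change among the called members. The call was lost without GapmeR 1 (adjusted p = 0.0512), GapmeR 4 (0.40, 0.0848), Negative Control 1 (0.0508) or Negative Control 2 (0.41, 0.235), within a range of 0.0091 to 0.235 over 14 alternatives.

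The Axin scaffolds did not pass the test. Axin1 (ENSMUSG00000024182, chr17:26131217-26195811), the scaffold on which beta-catenin is phosphorylated, had 1853, 2215, 1531 and 1782 counts after knockdown against 1537 and 1741, or 54.7, 56.9, 49.4 and 55.2 CPM against 56.1 and 54.6 CPM. Its GapmeR samples lay on both sides of the controls. The log2 fold change was -0.03 (SE 0.08, 95% interval -0.19 to 0.13, adjusted p = 0.743), and its sign changed under several alternatives.

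Axin2 (ENSMUSG00000000142, chr11:108917828-108950783) does the same work as Axin1 and is itself a target of beta-catenin in many tissues, where it is used as a readout of the pathway. It had 10, 9, 8 and 9 counts after knockdown against 6 and 6, or 0.295, 0.231, 0.258 and 0.279 CPM against 0.219 and 0.188 CPM. All GapmeR samples were above both controls, but by a few reads. The counting ratio over the pooled 36 and 12 counts was 1.31 (exact 95% interval 0.665 to 2.76, counting error only). The log2 fold change was 0.38 (SE 0.50, 95% interval -0.67 to 1.43, adjusted p = 0.56), so a change of Axin2 was not detectable at this depth.

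Among the transcription factors Tcf7l1 (ENSMUSG00000055799, chr6:72626371-72789045), which is known mainly as a repressor of Wnt targets in the absence of beta-catenin, had 742, 759, 741 and 735 counts after knockdown against 512 and 568. These were 21.9, 19.5, 23.9 and 22.8 CPM against 18.7 and 17.8 CPM, and all GapmeR samples were above both controls, GapmeR 2 the closest to them. Tcf7l1 rose by 0.27 on the log2 scale (SE 0.10, 95% interval 0.06 to 0.47, adjusted p = 0.0318), or 1.21-fold. The call was lost without GapmeR 1 (adjusted p = 0.0563), GapmeR 4 (0.0645), Negative Control 1 (0.0813) or Negative Control 2 (0.172), and without GapmeR samples 3 and 4 together, those with the highest macrophage marker sums (0.20, 0.149). The range over 14 alternatives was 0.0024 to 0.172.

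Tcf7l2 (ENSMUSG00000024985, chr19:55741797-55933659), which can activate or repress the same targets, had 615, 705, 566 and 618 counts after knockdown against 539 and 552. The normalized levels of 18.1, 18.1, 18.2 and 19.1 CPM lay between the controls at 19.7 and 17.3 CPM. The log2 fold change was -0.0048 (SE 0.09, 95% interval -0.20 to 0.19, adjusted p = 0.971), and its sign was not stable across the alternatives.

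Lef1 (ENSMUSG00000027985, chr3:131110297-131224357), the family member that marks active Wnt signalling in brain endothelium and is a target of the pathway, was close to the limit of detection. It had 7, 9, 7 and 6 counts after knockdown against 0 and 3, or 0.207, 0.231, 0.226 and 0.186 CPM against 0 and 0.0940 CPM. All GapmeR samples were above both controls, and both controls were at or under the 3-count limit. Lef1 passed the filter only through the GapmeR samples, where it was high, so a fall could not have been called. The counting ratio of 29 to 3 counts was 4.21 (exact 95% interval 1.31 to 21.6, counting error only). The fitted log2 fold change was 2.00 (SE 0.81, 95% interval 0.28 to 3.72, adjusted p = 0.0544), which missed the threshold. It passed with limma-voom (2.29, adjusted p = 0.0272), with scaling by library size alone (2.14, 0.0400) and without Negative Control 2 (5.83, 0.0236), when the remaining control was at 0, and its range over 13 alternatives was 0.0236 to 0.296.

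**Figure D2:**
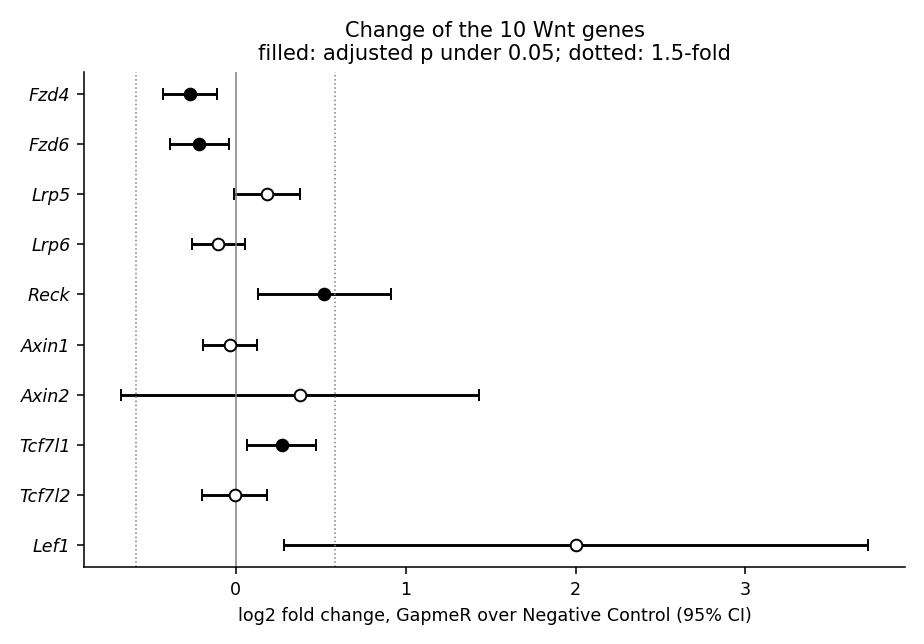
Log2 fold change of each member, GapmeR against Negative Control, from edgeR's quasi-likelihood fit with 95% intervals, ordered by role, with called genes filled and dotted lines at 1.5-fold. Tcf7l1 (0.27) and Reck (0.52) lie above 0 and Fzd4 (-0.27) and Fzd6 (-0.21) below it among the called members, while Lef1 has the widest interval; scaling by library size alone brings Fzd4 to -0.12 and Fzd6 to -0.07.

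The members differed far more in level than in response. On the scale of CPM per kilobase of exon, the control means were 36.7 ± 1.31 (SD, n = 2) for Lrp5, 18.1 ± 0.0793 for Fzd4, 7.15 for Axin1, 4.68 for Fzd6, 3.50 for Tcf7l1, 3.19 for Lrp6, 2.06 for Tcf7l2, 0.428 for Reck, 0.0294 for Axin2 and 0.00503 for Lef1. The GapmeR means in the same order were 41.7 ± 4.24 (SD, n = 4), 15.04 ± 1.01, 6.98, 4.04, 4.22, 2.98, 2.05, 0.614, 0.0383 and 0.0227. The only neighbours in this order whose sample ranges overlapped were Fzd6 and Tcf7l1. Among all tested genes Lrp5 stood at the 94.3 percentile of level per length and Fzd4 at the 86.1 percentile, whereas Axin2 and Lef1 stood at 4.66 and 1.28. Receptors and co-receptors of the norrin route were thus well covered, and the feedback genes Axin2 and Lef1 were measured on few reads.

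Ratios within a sample do not depend on scaling and were compared between paralogues with a two-sided exact permutation test, whose 15 splits of 4 against 2 samples allow no p below 0.0667. The ratios use counts not divided by exon length, so they compare the groups and not the levels of the paralogues. Per length, Tcf7l1 was above Tcf7l2 in both groups. The log2 ratio of Tcf7l2 to Tcf7l1 was -0.27, -0.11, -0.39 and -0.25 after knockdown against 0.07 and -0.04. All GapmeR ratios were below both controls, with a difference of -0.27 (exact permutation p = 0.0667, 0.133 adjusted over the 4 ratios), and the ratio went from 1.01 to 0.839. The log2 ratio of Axin2 to Axin1 was -7.67 ± 0.19 (SD, n = 4) against -8.09 ± 0.13 (SD, n = 2), again with no overlap (difference 0.42, exact permutation p = 0.0667, adjusted 0.133), and it rests on the few Axin2 counts. The Lrp5 to Lrp6 ratio was 8.89 in the GapmeR samples and 7.33 in the controls (log2 difference 0.28, exact permutation p = 0.2, adjusted 0.267), with overlapping samples. Fzd4 and Fzd6 fell by like amounts, and their log2 ratio was 1.90 ± 0.16 (SD, n = 4) against 1.95 ± 0.0032 (SD, n = 2), a difference of -0.06 (exact permutation p = 0.8, adjusted 0.8).

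Within the families, shares of counts per kilobase show how much of the transcript pool each member supplied. Tcf7l1 made up 65.3%, 63.3%, 66.8% and 64.5% of the Tcf/Lef transcripts after knockdown against 59.7% and 61.8%, the largest share in every sample. The Tcf7l2 share was 31.7% ± 1.87 (SD, n = 4) against 35.8% ± 1.18 (SD, n = 2), that of Tcf7 was 2.92% ± 0.653 against 3.37% ± 0.384, and that of Lef1 was 0.353% ± 0.0514 against 0.0911% ± 0.129. Of the Frizzled transcripts Fzd4 supplied 39.1%, 35.9%, 38.0% and 37.1% after knockdown against 32.5% and 33.2%. The level of Fzd4 was lower after knockdown while its share was higher, and the share of Fzd7, a widely expressed Frizzled, went from 21.3% ± 1.48 (SD, n = 2) to 13.9% ± 0.814 (SD, n = 4). Fzd6 made up 10.1% ± 0.862 of the Frizzled transcripts against 8.49% ± 0.114, and Fzd9 23.7% ± 0.887 against 20.8% ± 2.72. Shares of 1 family sum to a whole, so they are not independent, and they were not tested.

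**Figure D3:**
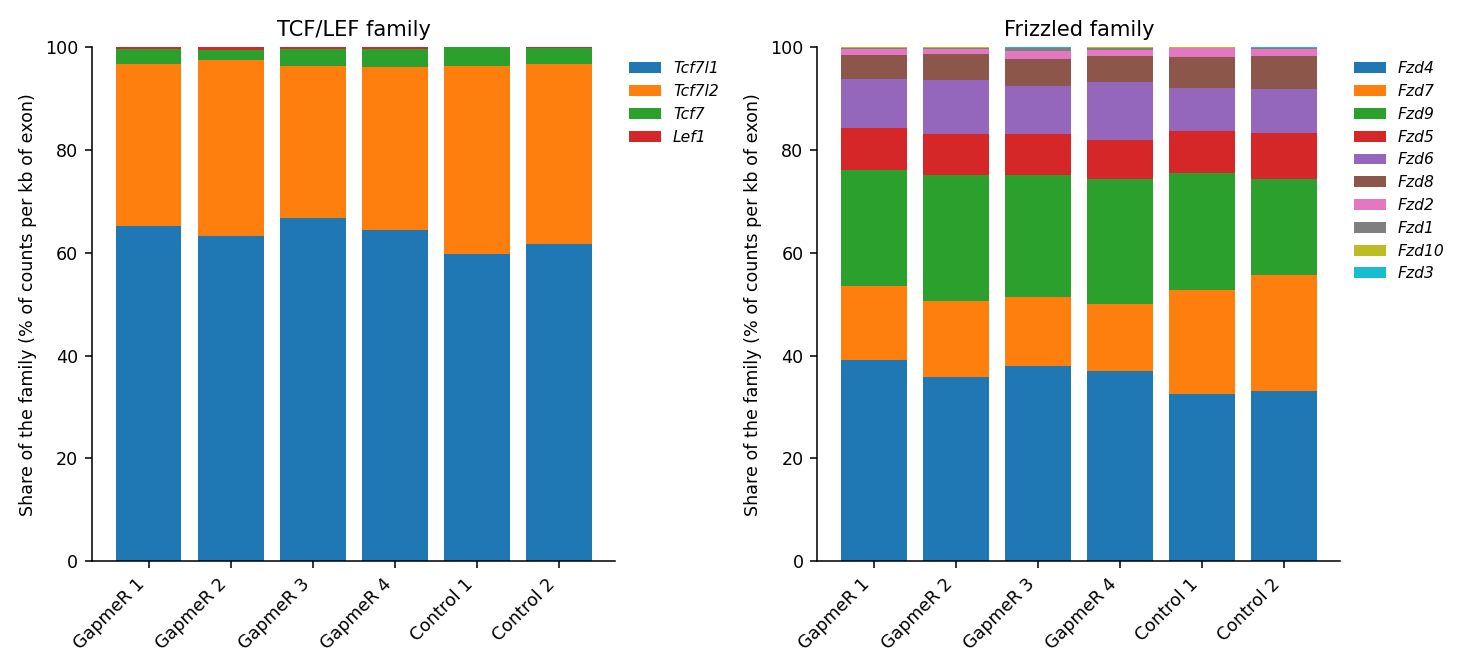
Share of each family's counts per kilobase of exon supplied by each Frizzled and each Tcf/Lef gene, in percent, for the 4 GapmeR and 2 Negative Control samples (Control 1 and 2). Fzd4 is the largest Frizzled share in all 6 samples and is higher in the GapmeR samples (35.9% to 39.1%) than in the controls (32.5% and 33.2%), and Tcf7l1 is the largest Tcf/Lef share.

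The rest of the pathway was read from lists of 129 other genes, of which 128 were in the table under the listed symbol and 102 passed the filter. Of these 102 genes 16 rose and 33 fell, 48.0% in all against the background of 45.3%, with a median log2 fold change of -0.04 against 0.03 over all tested genes. Of the 26 genes not tested, Rspo4, Dkk1, Sostdc1 and Slc38a5 had no counts in any sample. The split of calls depends on scaling, since 21 rather than 33 genes were called lower with library size alone. Some genes stand on more than 1 list and are counted under each.

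Beta-catenin itself, Ctnnb1, was at 744 ± 19.1 CPM (SD, n = 4) against 744 ± 10.7 CPM (SD, n = 2), and its log2 fold change was 6.4e-05 (95% interval -0.15 to 0.15, adjusted p = 0.999). The interval reached a change of 1.11-fold in the RNA, and the protein, on which the pathway acts, was not measured here. Tcf7, the remaining Tcf/Lef gene, was at 0.734 against 0.749 CPM (log2 fold change -0.03, adjusted p = 0.94).

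Of 14 ligands and secretion factors tested 3 rose and 1 fell, 28.6% in all against 45.3% of all tested genes. Rspo3, an endothelial R-spondin that prolongs the life of Frizzled at the surface, was at 2.74, 2.49, 2.84 and 2.51 CPM after knockdown against 6.64 and 6.33 CPM and fell by 1.29 on the log2 scale (SE 0.15, adjusted p = 3.7e-06). Porcn, which adds the lipid that Wnts need for secretion, rose by 0.63 (SE 0.20, adjusted p = 0.017) but not without Negative Control 2 (0.44, adjusted p = 0.206). Wnt9a, a Wnt ligand, rose from 3.81 to 6.43 CPM (log2 fold change 0.76, SE 0.16, adjusted p = 0.0011). The barrier ligands were near the limit of detection, with 4, 5, 5 and 3 counts against 5 and 4 for Wnt7a and 9, 19, 12 and 13 against 23 and 12 for Wnt7b. Their log2 fold changes were -0.28 (adjusted p = 0.75) and -0.62 (adjusted p = 0.24), and Ndp, which encodes norrin, had too few counts to test. Wls, the carrier that takes Wnts to the surface, was at 44.3 against 49.2 CPM (-0.15, adjusted p = 0.114). The third ligand gene called higher, Wnt2b, was at 0.544 against 0.104 CPM and is named after its values were seen. Its controls had 4 and 2 counts, so it passed the filter only through the GapmeR samples.

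Of 14 further receptors and co-receptors 6 fell and 2 rose, 57.1% in all against 45.3% of all tested genes. Among the other Frizzleds 5 fell, and Fzd1 rose from few counts in the controls. Fzd7 was at 34.1, 33.2, 33.1 and 30.2 CPM against 66.2 and 71.9 CPM, a log2 fold change of -1.08 (SE 0.07, adjusted p = 7.9e-09). Fzd8 fell by 0.74 (SE 0.09, adjusted p = 8.7e-06), Fzd5 by 0.56 (SE 0.08, adjusted p = 4.2e-05), Fzd2 by 0.98 (SE 0.23, adjusted p = 0.0027) and Fzd9 by 0.27 (SE 0.09, adjusted p = 0.027). The Fzd2 call was lost without Negative Control 1. That of Fzd9 held in 10 of 14 alternatives. Among those that lost it were leaving out GapmeR 1 (adjusted p = 0.0729) or Negative Control 1 (-0.10), and library size alone (-0.12, 0.321). Tspan12, the tetraspanin that strengthens norrin signalling at Fzd4, was at 18.3, 18.6, 18.8 and 18.3 CPM against 24.5 and 24.7 CPM. It fell by 0.41 (SE 0.08, adjusted p = 0.00066) and was called under all 14 alternatives. Adgra2, the partner of Reck, was at 173, 169, 177 and 169 CPM against 158 and 154 CPM. All its GapmeR samples were above both controls, but the log2 fold change of 0.14 (SE 0.07, adjusted p = 0.105) missed the threshold, and it passed without GapmeR 2 (0.15, 0.038), with at least 10 counts in every sample (0.19, 0.0302) and with library size alone (0.29, 0.0022). The receptor genes that rose, both named after their values were seen, were Fzd1 and Lgr5. Fzd1 had 13, 19, 34 and 28 counts against 4 and 9 (0.709 against 0.214 CPM). Lgr5 had 12, 13, 18 and 14 counts against 1 and 0. Neither gene met the filter on its controls alone, so both passed it only through the GapmeR samples.

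**Figure D4:**
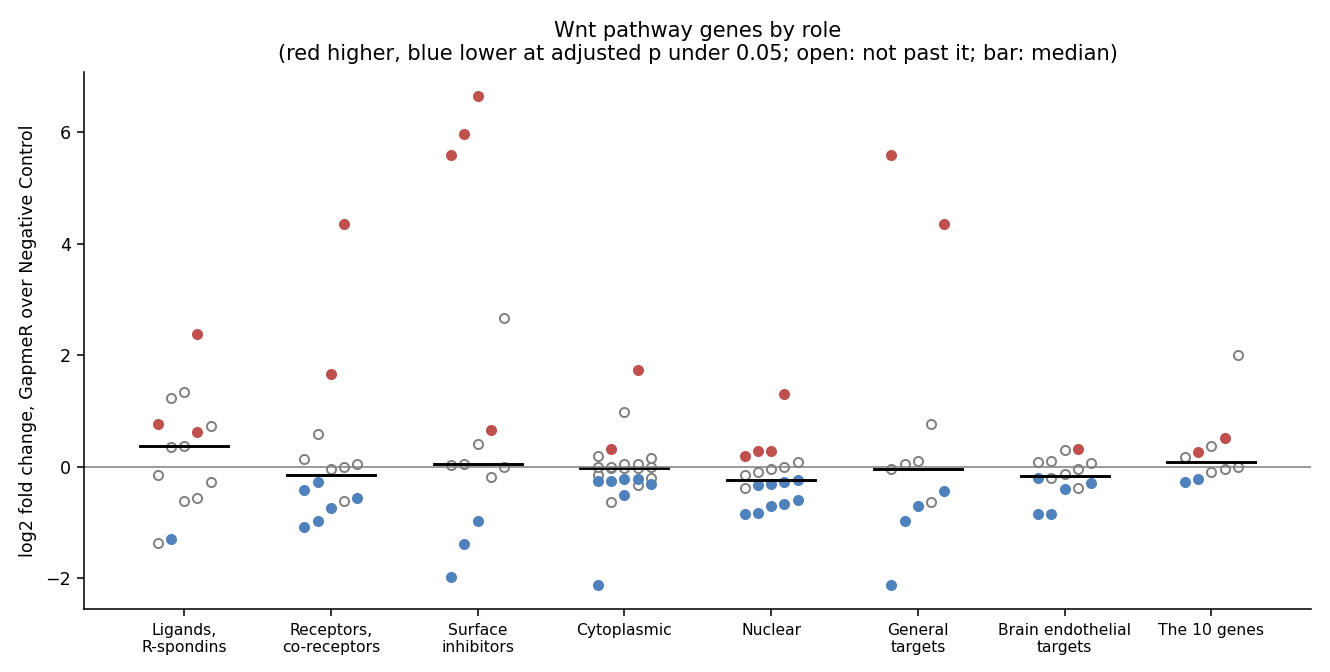
Log2 fold change of every tested gene of the pathway lists, grouped by role, with genes past an adjusted p of 0.05 filled, a bar at each list's median and the 10 members at the right. Of the 102 other genes 16 rose and 33 fell, and the called receptors lie mostly below 0, as do the called nuclear genes; with scaling by library size alone the count of genes that fell is 21.

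Of 13 secreted or surface inhibitors 4 rose and 3 fell, 53.8% in all against 45.3% of all tested genes. Dkk2, which binds Lrp5 and Lrp6, was at 4.63, 5.55, 4.71 and 4.06 CPM against 17.5 and 19.8 CPM and fell by 1.97 on the log2 scale (SE 0.12, adjusted p = 2.4e-09). Its receptor Kremen1 fell by 1.38 (SE 0.12, adjusted p = 8.7e-08), and Apcdd1, a membrane inhibitor expressed in barrier endothelium, fell by 0.97 (SE 0.09, adjusted p = 4.4e-07). Dkk3 rose by 0.66 (SE 0.25, adjusted p = 0.043), a call that was lost in 10 of 14 alternatives, among them each of those without GapmeR 1 (0.0816), GapmeR 3 (0.0510), GapmeR 4 (0.0564), Negative Control 1 (0.183) or Negative Control 2 (0.120). The other inhibitors called higher rested on controls at or near 0 and are named after their values were seen. They passed the filter only through the GapmeR samples, so a fall could not have been called. Rnf43, a ligase that removes Frizzled from the surface, had 34, 34, 33 and 34 counts against 0 and 1 (counting ratio 58.8, exact 95% interval 10.4 to 2340). Sost, which encodes the Lrp inhibitor sclerostin, had 17, 15, 10 and 10 counts and Dkk4 10, 6, 7 and 9 counts against none in either control.

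Of 24 cytoplasmic genes 2 rose and 7 fell, 37.5% in all against 45.3% of all tested genes. Nkd2, a feedback inhibitor that binds Dishevelled, was at 2.27, 1.21, 1.68 and 1.55 CPM against 6.46 and 8.02 CPM and fell by 2.12 (SE 0.20, adjusted p = 4.5e-07). Apc2, a relative of Apc, moved the other way, at 5.52, 5.50, 6.03 and 5.79 CPM against 1.75 and 1.66 CPM, and rose by 1.74 (SE 0.17, adjusted p = 4.4e-07). Apc had the higher level and was not called, at 34.8 against 34.8 CPM (-0.0041, adjusted p = 0.97). Gsk3b, a kinase that marks beta-catenin, fell from 111 to 77.7 CPM (-0.51, SE 0.07, adjusted p = 1.2e-05). Its paralogue Gsk3a, named after its values were seen, had the higher level and fell by less, from 150 to 125 CPM (-0.26, adjusted p = 0.018). Of the casein kinases Csnk1g1 rose by 0.31 (adjusted p = 0.0036) and Csnk1g3 fell by 0.30 (adjusted p = 0.006). The Csnk1g3 call was lost without Negative Control 1 or Negative Control 2, and with library size alone (-0.16, 0.135). The other casein kinases are named after their values were seen. Csnk1d fell by 0.21 (adjusted p = 0.029). Csnk1a1, at 206 against 206 CPM (0.0017, adjusted p = 0.99), Csnk1e and Csnk1g2 were not called.

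Of 19 nuclear genes 4 rose and 9 fell, 68.4% in all against 45.3% of all tested genes. This was the highest share of calls of any role and was not tested. Sox17, an endothelial transcription factor that works with Wnt signalling in barrier vessels, was at 103, 100.2, 116 and 109 CPM against 199 and 189 CPM and fell by 0.86 (SE 0.07, adjusted p = 1.3e-07). Nlk, a kinase that restrains Tcf and Lef, fell by 0.83 (SE 0.10, adjusted p = 6.5e-06). The co-repressors Tle1 and Tle4 fell by 0.70 (adjusted p = 6.7e-06) and 0.66 (adjusted p = 4.9e-06). Tle2 and Tle3 are named after their values were seen, and neither was called. Tle3 had a higher level than Tle1 and Tle4, at 92.3 against 92.2 CPM (0.0011, adjusted p = 0.99). Hipk2, a nuclear kinase, fell by 0.59 (adjusted p = 0.0016) and Bcl9, a co-activator of beta-catenin, by 0.33 (adjusted p = 0.021). The Hipk2 call was lost without Negative Control 2. That of Bcl9 held in 9 of 14 alternatives. Among those that lost it were leaving out GapmeR 1 (adjusted p = 0.057), Negative Control 1 or Negative Control 2, and library size alone (-0.18, 0.187). The 4 genes that rose are named after their values were seen. Ctnnbip1 was at 28.7 against 23.4 CPM (adjusted p = 0.010) and Cby1 at 30.3 against 25.0 CPM (adjusted p = 0.032). Aes was at 451 against 393 CPM (adjusted p = 0.039). Pygo1, another co-activator, was at 0.678 against 0.284 CPM (adjusted p = 0.037). It had 13 and 3 counts in the controls, so it passed the filter only through the GapmeR samples. The Pygo1 call was lost in DESeq2's Wald test (0.0665). Its relative Pygo2, also named after its values were seen, had the higher level and fell, at 91.1 against 108 CPM (-0.25, adjusted p = 0.0091).

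Of 11 general target genes 2 rose and 4 fell, 54.5% in all against 45.3% of all tested genes. Bambi, a decoy receptor for TGF-beta ligands and a known Wnt target, fell by 2.11 (SE 0.19, adjusted p = 1.4e-06), from 15.02 ± 3.84 (SD, n = 2) to 3.45 ± 0.834 CPM (SD, n = 4). Sp5, a transcription factor that Wnt signalling induces in many cells, fell by 0.71 (SE 0.10, adjusted p = 3.9e-05), and Myc by 0.43 (SE 0.08, adjusted p = 0.0006). Apcdd1, on this list too, was the remaining gene that fell, and those that rose were Rnf43 and Lgr5. The list thus held calls in both directions, but Rnf43 and Lgr5 had at most 1 count in a control and passed the filter only through the GapmeR samples. The called genes with more counts in the controls, Bambi, Apcdd1, Sp5 and Myc, all fell, a split made after the values were seen. Over the whole list the median log2 fold change was -0.03, against 0.03 over all tested genes. Among the 5 not called were Ccnd1 (2431 against 2264 CPM) and Znrf3 (8.39 against 8.11 CPM), both named after their values were seen. The members Axin2 and Lef1, which are also targets, did not pass the test.

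Of 14 target genes of brain endothelium 1 rose, Slc7a5, and 5 fell, Slc2a1, Mfsd2a, Abcg2, Slc7a1 and Sox17. These were 42.9% of the list against 45.3% of all tested genes. Slc2a1, the glucose transporter of the barrier, was at 256, 233, 261 and 239 CPM against 336 and 317 CPM. It fell by 0.40 (SE 0.07, adjusted p = 0.00037) and was called under all 14 alternatives. Mfsd2a, a lipid transporter that limits transcytosis, fell by 0.85 (SE 0.28, adjusted p = 0.020), a call lost in DESeq2's Wald test (0.0559) and without GapmeR 4 (0.0519), Negative Control 1 (0.0937) or Negative Control 2 (0.134). Cldn5, the main tight junction claudin, was at 1546, 1441, 1630 and 1626 CPM against 1509 and 1417 CPM, with overlapping groups and a log2 fold change of 0.09 (SE 0.08, 95% interval -0.08 to 0.27, adjusted p = 0.372), and it passed only with library size alone (0.24, 0.0187). Abcb1a, which encodes the efflux pump P-glycoprotein, was at 6.77 against 6.93 CPM (-0.04, adjusted p = 0.86), and Plvap was at 233 against 221 CPM (0.08, adjusted p = 0.68). Abcg2, an efflux pump, and Slc7a1, a transporter of cationic amino acids, fell by 0.29 (adjusted p = 0.017) and 0.20 (adjusted p = 0.029), and Slc7a5, an amino acid transporter, rose by 0.32 (SE 0.09, adjusted p = 0.0072). The Slc7a5 call was lost without Negative Control 2 (0.0976), and those of Abcg2 and Slc7a1 held in 8 and 7 of 14 alternatives. Abcg2 was lost without GapmeR 1 (0.0516), Negative Control 1 (0.0618), Negative Control 2 (0.208) or GapmeR samples 3 and 4 together (0.0702), and with library size alone (-0.14, 0.238). Slc7a1 was lost without GapmeR 3 (0.0622), Negative Control 1 (0.156), Negative Control 2 (0.240) or GapmeR samples 3 and 4 together (0.0795), with at least 10 counts in every sample (0.0815) and with library size alone (-0.053, 0.553).

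**Figure D5:**
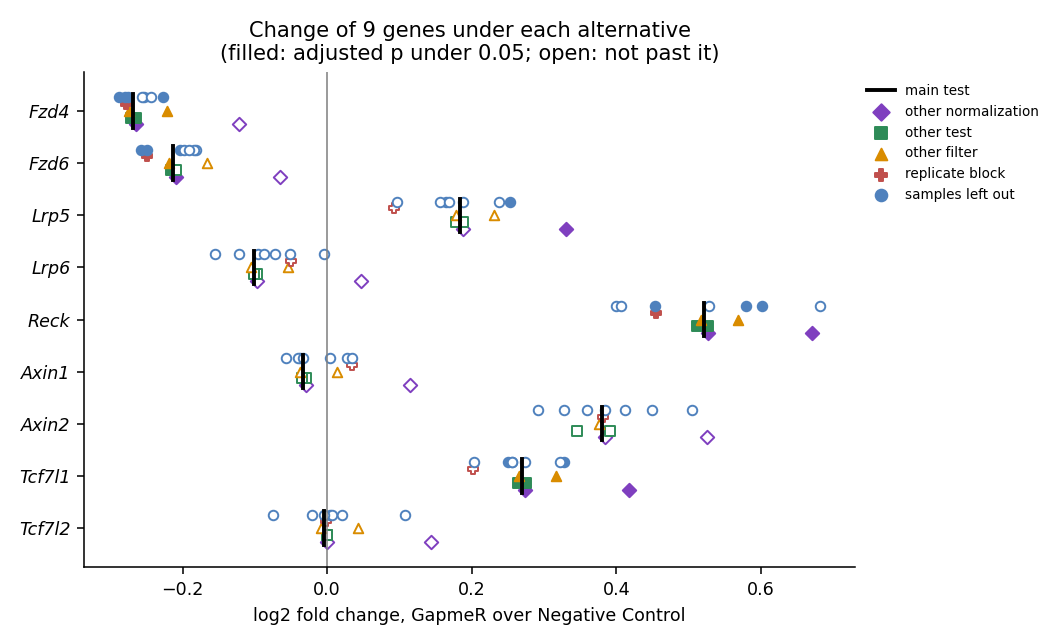
Log2 fold change of 9 members (Lef1 is not drawn) in edgeR's quasi-likelihood test (black bars) and under each alternative (symbols by kind), with calls past an adjusted p of 0.05 filled. Fzd4, Fzd6, Tcf7l1 and Reck keep their direction under all 14 alternatives but not their call, whereas Tcf7l2, Axin1 and Lrp6 lie on both sides of 0, with library size alone at 0.14, 0.11 and 0.05.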

How the data were processed

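RNA of bEND.3 cells was sequenced in paired reads after ribodepletion. The authors processed the reads with the bcbio-nextgen pipeline and aligned them to mm10 with STAR and Ensembl transcripts, and they deposited raw counts for each Ensembl gene. The submitters' processing notes name Trimmomatic 0.36, STAR 2.5.2b and Subread 1.5.2. The strand setting and Ensembl release are not given in the sources used here, and reads of overlapping or antisense genes cannot be told apart. Samples were grouped by their titles into 4 GapmeR and 2 Negative Control samples, although the study's methods give 4 of each. A further 1 column of counts matched no label and was not used.

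Genes that reached 5 counts in 2 or more samples were tested with edgeR 4.0.16 (robust quasi-likelihood test, TMM normalization, R 4.3.3) and adjusted by Benjamini-Hochberg over all 18234 genes, with calls at an adjusted p below 0.05. All adjusted p-values are from this test unless another is named. The authors used DESeq2, which was run as an alternative (1.42.0), as was limma-voom (3.58.1). CPM values are TMM-normalized, SDs are between samples, and 95% intervals use edgeR's degrees of freedom. Exon lengths are the union of exons in GENCODE vM39 on GRCm39, matched for 17965 tested genes by identifier. Gene positions and promoters are from RefSeq on mm10. Chi-square statistics per degree of freedom between replicates were 5.87 to 28.0, more than sampling noise allows for 1 library counted more than once. Functions were tested on simulated data, and other steps used Python 3.11.15. Intervals and limits from counts cover counting error only.

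The members and lists were chosen with earlier results of these data known. Named were all members, the target, the other parts of the brain endothelial pathway, 6 barrier genes, and in each role list up to 5 further called genes with the largest change and a mean of at least 1 CPM. Alternatives were limma-voom, DESeq2's Wald test and its size factors alone, library size only, no filter, at least 10 counts in every sample, a replicate block, at least 1.5-fold, and each sample left out in turn. Leaving out GapmeR samples 3 and 4 was added after their macrophage marker counts were seen.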

Additional observations from a re-analysis of the deposited data

Results flagged for a closer look

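The normalized level of Tcf7l2 in GapmeR 4 stood apart from the other GapmeR samples, at 19.1 CPM against 18.1 to 18.2 CPM. Its gap to the nearest sample was 0.864 of the range of the group, above Dixon's 95% critical value for 4 samples. Of 14 values examined 1 was picked out, and chance picks out about 5% of such groups. GapmeR 4 still lay between the controls at 17.3 and 19.7 CPM.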

How the results depend on the processing

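Values are log2 fold changes unless stated. Of 138 comparisons of a member's value with an alternative, 100 kept their direction and their side of the threshold. Fzd4, Fzd6, Tcf7l1 and Reck kept their direction in every alternative, and none of them kept its call in all. With library size only, Lef1 was 2.14 and Lrp5 0.33, both past the threshold, Fzd4 was -0.12 and Fzd6 -0.065, both no longer past it, and Tcf7l2 (0.14), Axin1 (0.11) and Lrp6 (0.047) reversed, so that 4 members were called higher and 0 lower, with 21 pathway genes and 2135 of all genes lower. That setting leaves out the TMM factors, which differ between the groups. Lef1 was 2.29 with limma-voom and past the threshold. Fzd6 was -0.21 with DESeq2's Wald test and -0.17 with at least 10 counts in every sample, both short of it, which left 1 member called lower in each, and under the latter Tcf7l2 (0.042) and Axin1 (0.013) reversed. Requiring at least 1.5-fold left 0 members higher, 0 lower, 16 pathway genes lower and 1390 genes lower. Without GapmeR samples 3 and 4, Tcf7l1 was 0.20 and lost its call, leaving 1 member higher, and Axin1 (0.034) and Plvap (-0.074) reversed. Reversals of genes without a call were Ctnnb1 with limma-voom (-0.00026) and with no filter (-0.0043), and Tcf7 (0.11, 0.011) and Abcb1a (0.10, 0.0037) with library size only and with at least 10 counts in every sample. The Fzd4 share of Frizzled counts not divided by length was 6.10 percentage points higher after knockdown, against 4.68 per length. Except where stated, the cause of these differences was not tested.

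Leaving out each sample in turn gave 1.16 to 5.83 for Lef1, 0.25 to 0.33 for Tcf7l1, -0.075 to 0.11 for Tcf7l2, -0.057 to 0.028 for Axin1, -0.29 to -0.23 for Fzd4, -0.26 to -0.18 for Fzd6, 0.16 to 0.25 for Lrp5 and 0.40 to 0.68 for Reck, and -0.11 to 0.0021 for the log2 ratio of Fzd4 to Fzd6. It gave -0.012 to 0.037 for Ctnnb1, -0.18 to 0.16 for Tcf7, -0.51 to 0.012 for Wnt7a, -1.09 to 0.060 for Wnt7b, -0.22 to 0.22 for Abcb1a and -0.015 to 0.22 for Plvap. Called members numbered 0 to 3 higher and 0 to 2 lower, pathway genes 10 to 18 higher and 20 to 35 lower, and all genes 1930 to 3949 lower, with the fewest without Negative Control 2. Without a control, the lone control is assumed to vary like the GapmeR samples, and fewer samples enter the fit.

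The replicate numbers did not pair the samples, since only 2 numbers are shared and the correlations of same-numbered deviations were -0.11 and 0.18 over 8870 genes. A replicate block on these 4 samples gave 0.20 for Tcf7l1 (adjusted p = 0.154, call lost), 0.034 for Axin1 and -0.078 for Plvap (both reversed), and 1 member called higher, and the calls of Abcg2 (adjusted p = 0.0634), Slc7a1 (0.0737) and Dkk3 (0.0629) were lost. It called 4517 genes higher and 3295 lower, against 4625 and 3643. Of the 32 other named pathway genes called, 21 were called in every alternative. Few counts limit Lef1, Axin2, Wnt7a and Wnt7b, and 2 controls limit every comparison.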
